A study of Mus musculus with 18 samples.

Results

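Eukaryotic translation initiation factors (eIFs) bring the initiator tRNA, the messenger RNA and the ribosomal subunits together at a start codon. In textbook terms, eIF2 carries the initiator tRNA, eIF2B reloads eIF2 with GTP, the many-subunit eIF3 holds the small subunit open for the mRNA, and the eIF4 group binds the cap, unwinds the leader and bridges to the poly(A) tail. The eIF2α kinases and the eIF4E-binding proteins slow these steps under stress or poor nutrition, and eIF5, eIF5B and eIF6 act around the joining of the subunits.

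The genes for these factors were described in RNA-seq libraries of mouse Neuro2A cells, a neuroblastoma line of ATCC origin labelled wild type. Cells were transfected with a biotinylated *miR-92b* mimic at 25 nM (92b) or with a biotinylated scrambled sequence at the same concentration (Scr), and RNA bound to the mimic was collected on streptavidin, or cells were left untransfected (Control). Each was taken from nuclear lysates (Nuc) or whole cell lysates (Whole), which gave 6 groups of 3 samples: Nuc_Control, Nuc_Scr, Nuc_92b, Whole_Control, Whole_Scr and Whole_92b. The study set untransfected cultures beside both transfections in its qPCR check of the pulldown, with samples from repeated experiments. For the sequenced libraries no source used here states outright that Control lysates went through the streptavidin step or that the 3 samples of a group were separate cultures, so p-values measure the spread between these samples, which may be technical. All groups are 1 cell line, and the mimic adds *miR-92b* to what the cells already make.

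A locus was taken as a member when 1 of its gene symbols began with Eif and a digit, leaving out 7 pseudogene loci. This gave 57 of the 168136 loci in the table, with 56 distinct symbols because *Eif4enif1* has a second locus. Values are normalized counts, the fragments on a locus divided by the size factor of its sample. Of the members, 53 reached the minimum of 10 set on the average normalized count of the 18 samples, and these entered the test with 15579 loci in all. The remaining 4 were listed at or near 0: *Eif4e1b*, an eIF4E relative of the germ line, and *Eif2s3y*, the Y-linked eIF2γ gene, at 0 in all 18 samples, *Eif2c5*, whose symbol is that of an Argonaute-type gene and not of an initiation factor, at 1 read in 1 sample, and the second locus of *Eif4enif1* at 73.1 or less. A count of 0 allows up to 3 reads in a library, for counting error only. Of the tested loci, 11 join the initiation factor with another gene, so their reads cannot be assigned to the factor alone: *Eif4a1*, *Eif4a2*, *Eif4e*, *Eif4g2*, *Eif5*, *Eif3b*, *Eif3j1* and *Eif4ebp1* with small RNA genes or transcripts known by clone or predicted names, *Eif4g1* with *Fam131a*, *Eif4e3* with *Foxp1* and *Eif4ebp3* with *Ankhd1*. *Eif3j1* and *Eif3j2*, like *Eif1a* and *Eif1ax*, are close copies, and no source used here says how the authors divided reads between such copies or with processed pseudogenes.

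The miRNA used as bait binds mRNAs mainly through bases 2 to 8 of its mature strand. The mature mouse sequence of RefSeq (GRCm38.p6, chr3:89227126-89227147, minus strand) is shown with these bases in capitals.
mmu-miR-92b-3p: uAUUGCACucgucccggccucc
The 7-base complement of the seed, GTGCAAT on the mRNA strand, was searched in the 3′ UTRs of all annotated coding transcripts (GENCODE M21, GRCm38). It occurred in 1 of the 53 tested members, or 1.89%, against 8.47% of the 11642 tested loci with an annotated 3′ UTR. The 8-base complement, which adds a final A, occurred in 0 of 53 members and in 2.998% of those loci. Members were searched under their own symbol and other loci under every symbol they join. The shares also take no account of 3′ UTR length. In the transcript with the longest coding sequence its median was 633 bases for members and 988 for loci of 1 coding gene. The single match lay in *Eif2ak4*, the gene of the amino-acid-sensing eIF2α kinase GCN2. It lies 423 bases into the 664-base 3′ UTR of transcript ENSMUST00000110869.1. The gene runs on to base 118475234, and its transcript with the longest coding sequence has a 3′ UTR of 174 bases. The match is shown in capitals within 29 bases of the plus strand at chr2:118452034-118452062.
Eif2ak4 site: tgtgcagtgccctggGTGCAATcctcagc
The study uses *miR-92b* as its short name for *miR-92b-3p*, so the 3p strand was searched, although its account of the mimic does not spell out the arm.

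Loci with a symbol held 3752991 to 22920038 reads in a sample. Of 7 nuclear RNAs checked, *Malat1*, *Neat1* and *Kcnq1ot1* were higher in every nuclear than in any whole cell sample, *Meg3* and *Rian* overlapped, and *Miat* and *Snhg11* were at 0 in 16 and 14 of the 18 samples. *Malat1* had normalized counts of 79997 to 103245 in nuclear and 22763 to 58387 in whole cell samples, *Gapdh*, a cytoplasmic mRNA, had 653 to 1644 and 3134 to 12918, and mitochondrially encoded RNAs took 0.0268% to 0.485% and 2.14% to 7.15% of the total. The sympathetic neuroblast marker *Hand2* was present in all samples, whereas the neuronal gene *Nefl* was at 0 in all 18. One library, Whole_92b replicate 3, stood apart from its group, with 11.6% of reads in its 10 highest loci against at most 8.99% in the others, and it was the highest whole cell sample for 30 of the 53 tested members. The main counts of called loci, and the values of the members described at most length, are therefore given with and without it.

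The initiation factor loci took a smaller share of the nuclear reads. They held 0.572% to 0.642% of reads in the 9 nuclear samples and 0.813% to 1.20% in the 9 whole cell samples, with no overlap, and at most 1.02% in whole cells without Whole_92b replicate 3. The group means were 0.596% ± 0.0234 (SD, n = 3) in Nuc_Control, 0.632% ± 0.0143 in Nuc_Scr, 0.605% ± 0.0125 in Nuc_92b, 0.983% ± 0.0333 in Whole_Control, 0.898% ± 0.0195 in Whole_Scr and 0.964% ± 0.208 in Whole_92b. A share of a library does not separate fewer molecules per cell from more of other RNAs.

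**Figure D1:**
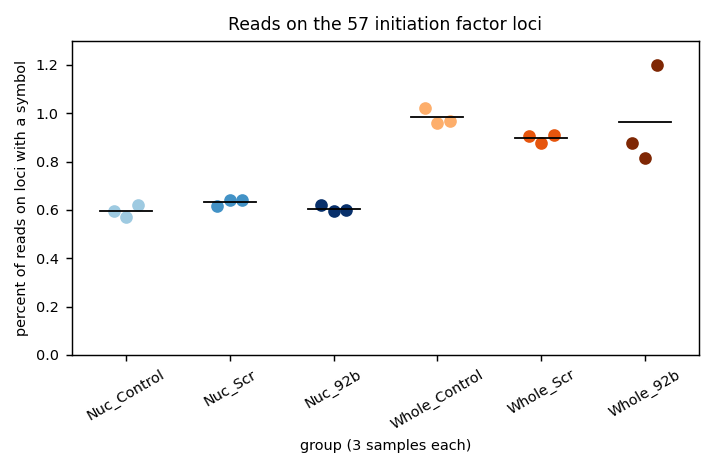
Percent of reads on loci with a symbol that lay on the 57 initiation factor loci, by group. Points are samples and lines are group means; the nuclear samples lie between 0.572% and 0.642%, all below the whole cell samples.

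Nuclear and whole cell samples were compared over the 3 treatments together, 9 against 9, to ask which initiation factor mRNAs differed between the compartments. Of the 53 loci, 30 were called lower in nuclear samples, 1 higher and 22 not (limma on log2(normalized count + 1), Benjamini-Hochberg adjusted p under 0.05), where 15.8% of all tested loci were called lower and 15.3% higher. The median log2 fold change of the members was -0.63, beside 0.14 for all tested loci. The 9 nuclear and 9 whole cell values did not overlap for 14 members, all lower in nuclear samples and none higher, against 4.4% and 2.91% of all loci. In 19 members the log2 fold change was -1 or below, and all 19 were called. Without Whole_92b replicate 3, 28.6% of all loci were called in either direction, against 31% with all samples. Of the members, 31 were then called lower and 1 higher, with a median of -0.58. These included 29 of the 30 above, whose values moved by at most 0.23 toward 0, and 15 had a value of -1 or below and 14 did not overlap. Without the 11 joined loci, 26 of 42 were called lower and 0 higher, with a median of -0.90. The share of all loci called is not given for that run. Since this is a bulk measurement relative to the other RNA in each library, a lower nuclear value can reflect less of the mRNA or more of other RNA, which cannot be told apart here.

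**Figure D2:**
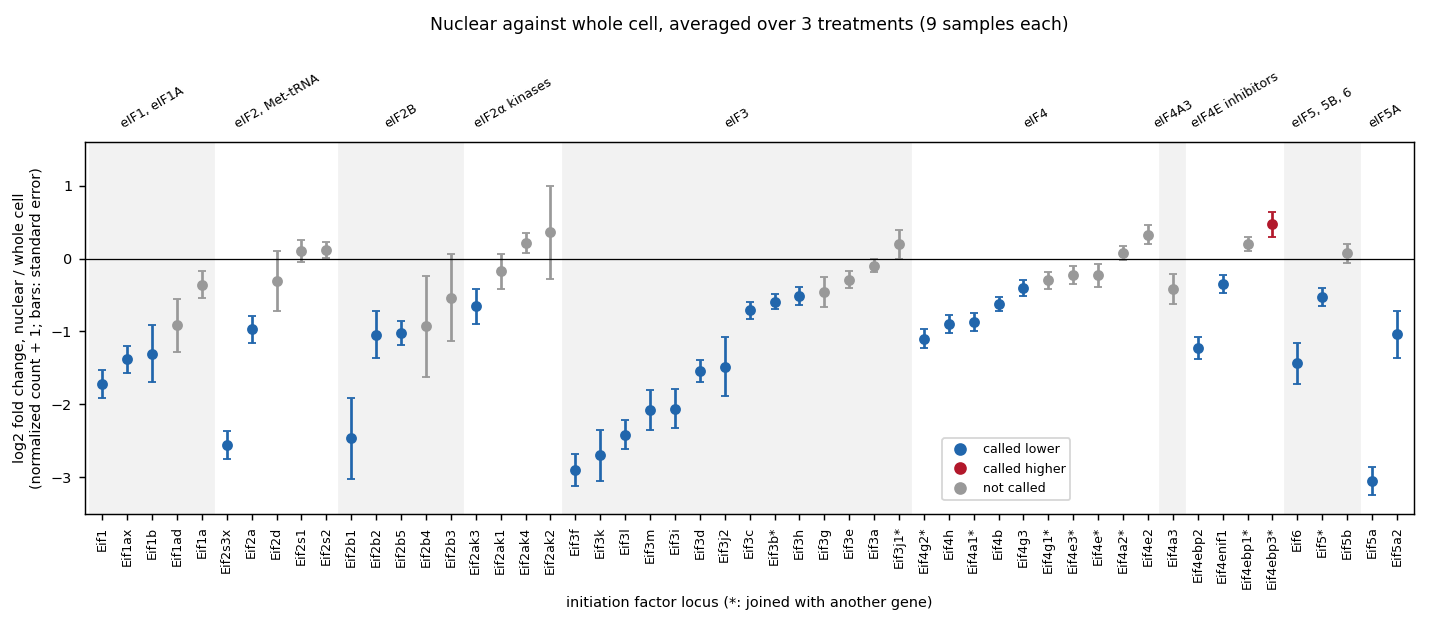
Log2 fold change of nuclear over whole cell samples on log2(normalized count + 1) for the 53 tested loci, arranged by role, with the standard error of the limma fit. Blue loci were called lower, the red locus (*Eif4ebp3* with *Ankhd1*) higher, and grey loci were not called; values run from -3.05 for *Eif5a* to 0.47.

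*Eif5a* showed the largest difference. It encodes eIF5A, a factor known to carry hypusine and to help ribosomes through difficult peptide bonds, and lies at chr11:69916714-69921958 (minus strand, GENCODE M21, GRCm38). Its normalized count had a lowest, median and highest value of 80.7, 140.4 and 324 in the nuclear samples and of 829.6, 1083 and 2284 in the whole cell samples. The groups did not overlap, and the log2 fold change was -3.05 ± 0.19 (SE, limma adjusted p = 1.07e-10), an 8.30-fold lower nuclear value on the log2(normalized count + 1) scale. It was -2.91 ± 0.17 without Whole_92b replicate 3. Its paralog *Eif5a2*, with 49.2, 70.7 and 130.1 in nuclear and 39.5, 178 and 400.3 in whole cell samples, overlapped and was also called lower (-1.04 ± 0.32, limma adjusted p = 0.0153), and without that library it was at -0.86.

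The eIF3 genes spanned nearly the whole range of the members. Of 14 tested subunit genes, 10 were called lower, with a median log2 fold change of -1.09 and a range of -2.90 to 0.19. *Eif3f* (chr7:108934417-108942951, plus strand), a subunit gene of the MPN-domain pair of eIF3, had 90.9, 115 and 274 in nuclear and 581, 1013 and 2303 in whole cell samples, with no overlap (-2.90 ± 0.22, limma adjusted p = 8.80e-10). *Eif3l* had 94.5, 152 and 253 against 605, 824 and 1678, also without overlap (-2.41 ± 0.20, limma adjusted p = 2.60e-09). These values were -2.71 for *Eif3f* and -2.28 for *Eif3l* without Whole_92b replicate 3. *Eif3k* (-2.70), *Eif3m* (-2.08) and *Eif3d*, whose product can itself bind caps (-1.54), did not overlap either. *Eif3i* (-2.06), *Eif3j2* (-1.48), *Eif3c* (-0.71), *Eif3b* (-0.59) and *Eif3h* (-0.51) were called lower with overlapping samples. Without that library *Eif3k* was at -2.48, *Eif3m* at -1.86, *Eif3d* at -1.42 and *Eif3i* at -1.89, and all 10 stayed called. At the other end, *Eif3a*, the gene of the large scaffold subunit, had 1433, 1539.8 and 2055 in nuclear and 1371, 1749 and 2077 in whole cell samples (-0.10 ± 0.09, limma adjusted p = 0.454). *Eif3j1* with *AL845457.1* (0.19), *Eif3e* (-0.29) and *Eif3g* (-0.46) were not called. Subunit genes of the same complex therefore ran from not called to a 7.47-fold lower nuclear value for *Eif3f*.

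The genes of the 3 eIF2 subunits also differed among themselves. *Eif2s3x* (chrX:94188707-94212862, minus strand), the X-linked gene of the γ subunit that binds GTP and the initiator tRNA, had 136, 171 and 309.6 in nuclear and 625, 907 and 2674 in whole cell samples, with no overlap (-2.56 ± 0.20, limma adjusted p = 1.00e-09; -2.35 ± 0.14 without Whole_92b replicate 3). *Eif2s1*, the gene of the α subunit on which the stress kinases act, had 396, 543 and 769 in nuclear and 366, 515 and 651 in whole cell samples, which overlapped throughout (0.11 ± 0.15, limma adjusted p = 0.627). *Eif2s2*, for the β subunit, was likewise not called (0.12, limma adjusted p = 0.41). *Eif2a*, which encodes a separate factor able to deliver initiator tRNA, was lower without overlap (-0.97), and *Eif2d* was not called (-0.31). In the exchange factor eIF2B, *Eif2b1* (-2.47), *Eif2b2* (-1.04) and *Eif2b5*, for the catalytic subunit (-1.02), were called lower. *Eif2b1* is a low locus, with 1.15, 18.3 and 45.9 against 28.2, 77.3 and 88.2. *Eif2b4* (-0.93 ± 0.69) and *Eif2b3* (-0.54 ± 0.60) had errors too wide for a call.

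Among the 4 eIF2α kinase genes only *Eif2ak3*, for the endoplasmic reticulum kinase PERK, was called lower (-0.66 ± 0.25, limma adjusted p = 0.0447), and that call was lost in 12 of the 18 omissions of a single sample, Whole_92b replicate 3 among them (-0.56, limma adjusted p = 0.0878), and in 9 of 16 other settings (0.0048 to 0.607 over all alternatives). *Eif2ak4* had 301, 469 and 508 in nuclear and 272, 397 and 485 in whole cell samples (0.21 ± 0.14, limma adjusted p = 0.248). *Eif2ak1* (-0.18) and *Eif2ak2*, the gene of the double-stranded-RNA kinase PKR (0.36 ± 0.64), were not called.

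Of the 5 tested genes named for eIF1 or eIF1A, 3 were called lower. *Eif1*, which guards start codon choice, had 646, 809 and 1333 in nuclear and 1426, 2844 and 5748 in whole cell samples, without overlap (-1.72 ± 0.19, limma adjusted p = 3.21e-07; -1.53 ± 0.13 without Whole_92b replicate 3). *Eif1ax* (-1.38) and *Eif1b* (-1.30) were also called, and *Eif1ad*, for a protein with a domain like that of eIF1A (-0.91, limma adjusted p = 0.0584), and *Eif1a* (-0.36) were not. Of the subunit-joining genes, *Eif6*, whose product keeps the ribosomal subunits apart, was lower (-1.44 ± 0.28, limma adjusted p = 0.000351), as was *Eif5* with *Snora28* (-0.53 ± 0.13, limma adjusted p = 0.00232), and *Eif5b*, for the GTPase of the joining step, was not called (0.07 ± 0.13, limma adjusted p = 0.723).

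In the group of cap binding, scaffold and helicase genes, 5 of 10 tested were called lower, with a median log2 fold change of -0.35. *Eif4g2* with *1700012D14Rik*, the member with the highest mean normalized count, had 3154, 3715 and 4240.0 in nuclear and 5607, 7772 and 14002 in whole cell samples (-1.10 ± 0.13, limma adjusted p = 1.29e-06; -0.97 without Whole_92b replicate 3). It encodes a scaffold related to eIF4G that lacks the eIF4E-binding part. *Eif4b*, for a helper of the helicase, had 3095, 3378 and 3721 against 3999, 5237 and 7080.3 (-0.63 ± 0.09, limma adjusted p = 2.09e-05; -0.58 without that library). Neither overlapped, nor did *Eif4h* (-0.90) and *Eif4a1* with small RNA genes (-0.87). The helicase genes differed: *Eif4a2* with *Snora81* and *Snord2* had 1187, 1344 and 1728 against 1123, 1279 and 1529.9 (0.08 ± 0.10, limma adjusted p = 0.589), and *Eif4a3*, for the helicase of the exon junction complex, was not called (-0.42 ± 0.21, limma adjusted p = 0.129). *Eif4e* with *Mir1956*, for the cap-binding protein, was not called (-0.23 ± 0.16, limma adjusted p = 0.279). *Eif4g1* with *Fam131a* was not called either (-0.30 ± 0.12, limma adjusted p = 0.0594), but passed in several alternatives. Among these were Whole_92b replicate 3 left out (-0.36, limma adjusted p = 0.00714), quantile normalization (limma adjusted p = 0.0193) and DESeq2 (adjusted p = 0.049). By FPKM it did not pass (limma adjusted p = 0.332), and over all alternatives the adjusted p ran from 0.0016 to 0.332.

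Of the 4 tested genes of eIF4E-binding proteins and the eIF4E transporter, 2 were called lower. *Eif4ebp2*, for a binding protein prominent in neurons, had 357, 515 and 613 in nuclear and 781, 1178 and 1858 in whole cell samples, without overlap (-1.23 ± 0.14, limma adjusted p = 7.15e-07; -1.12 without Whole_92b replicate 3). *Eif4enif1*, for the transporter that brings eIF4E into the nucleus, was lower by little (-0.35, limma adjusted p = 0.0319). The locus of *Eif4ebp3* and *Ankhd1* was the single member called higher, with 923, 1050.1 and 1242 in nuclear and 329.5, 838 and 1149 in whole cell samples (0.47 ± 0.17, limma adjusted p = 0.0386). The lowest of these whole cell values was Whole_92b replicate 3, without which the value was 0.29 (limma adjusted p = 0.0433). The call was lost in 11 of the 18 omissions of a single sample and in 5 of 15 other settings, among them edgeR and DESeq2 (adjusted p = 0.0564 with each), no filter (0.0971) and FPKM (0.725), and over all alternatives the adjusted p ran from 0.00552 to 0.774. As its reads also cover *Ankhd1*, no initiation factor gene standing alone in its locus was called higher. *Eif4ebp1* with *5430430B14Rik* was not called on counts (0.20 ± 0.10, limma adjusted p = 0.117).

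**Figure D3:**
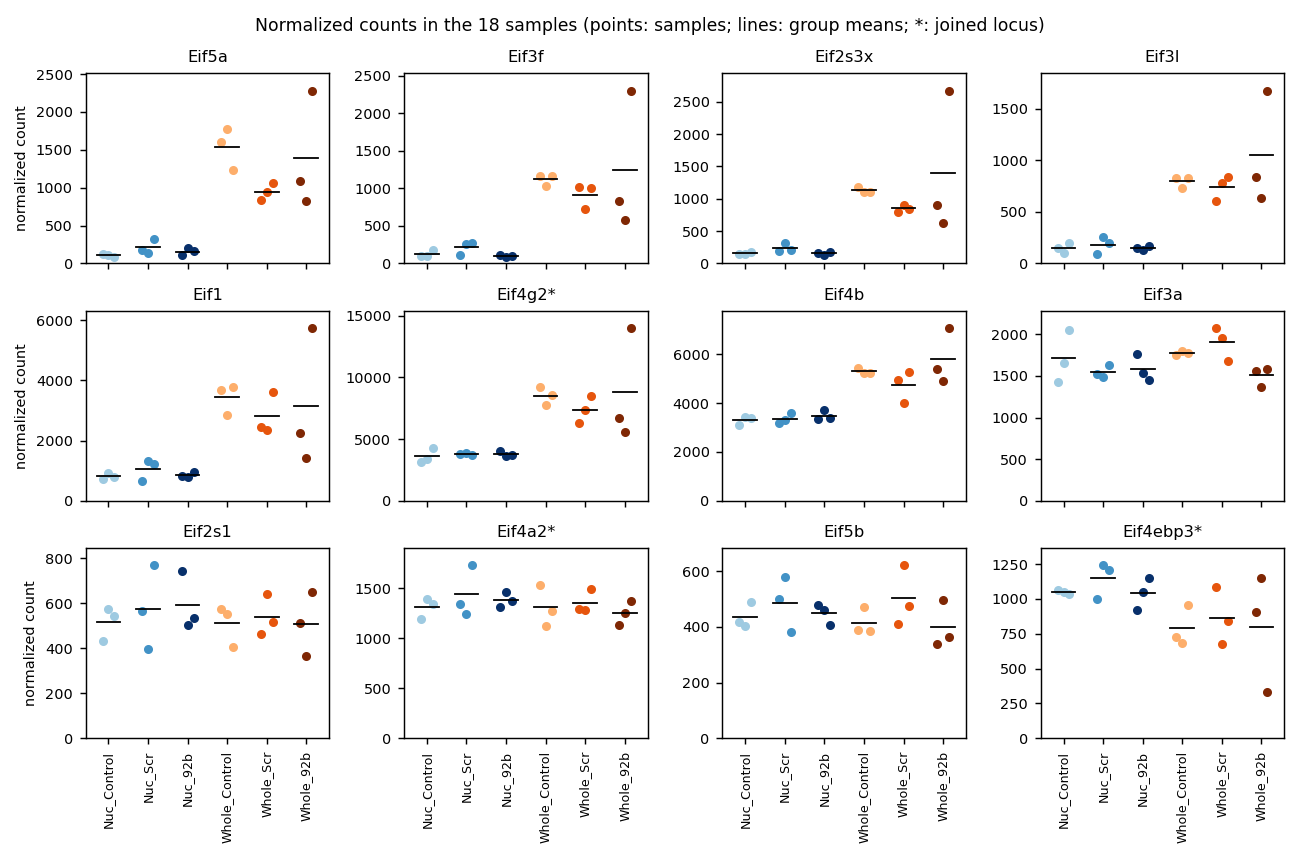
Normalized counts of 12 initiation factor loci in each of the 18 samples, with group means as lines and the y axis starting at 0. *Eif5a*, *Eif3f*, *Eif2s3x*, *Eif3l*, *Eif1*, *Eif4g2* and *Eif4b* show nuclear samples below all whole cell samples, and *Eif3a*, *Eif2s1*, *Eif4a2* and *Eif5b* overlap; the highest Whole_92b point of the separated loci is replicate 3.

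Within each treatment, 3 against 3, the same comparison called fewer loci. In Control samples 21 members were called lower and 0 higher, against 6.91% and 2.94% of all loci, or 1077 lower and 458 higher. With samples set to the same median these became 891 lower and 773 higher, and 18 members were called lower and 0 higher. In Scr samples these were 11 and 0, against 3.7% and 1.46% of all loci (577 lower and 228 higher, and 719 and 569 with DESeq2), and in 92b samples 20 and 0, against 6.63% and 6.66%. Without Whole_92b replicate 3 the 92b comparison called 13 lower and 1 higher. The share of all loci called in either direction was then 6.26%, against 13.3% with all samples. A model of the 6 samples alone called 5 lower. In Scr samples 6 were called lower without Whole_Scr replicate 3 and 7 with no filter, and in Control samples 33 with sample weights. For these last settings no share of all loci is given. At an unadjusted p under 0.05, 27, 25 and 29 members passed in Control, Scr and 92b, against 22.7%, 22.1% and 28.6% of all loci. In all 3 treatments 10 members were called lower, against 2.42% of all loci: *Eif1*, *Eif2b5*, *Eif2s3x*, *Eif3d*, *Eif3f*, *Eif3l*, *Eif4ebp2*, *Eif4g2*, *Eif4h* and *Eif5a*. This count uses all samples. In Scr samples the *Eif2b5* call was lost in 4 of 6 omissions of a single sample and in 3 of 14 other settings. The *Eif1* call was lost in 2 of 6 and 2 of 14, and that of *Eif2s3x* in 0 of 6 and 1 of 14. *Eif3f*, *Eif3l*, *Eif4h* and *Eif5a* kept theirs throughout. *Eif3d*, *Eif4ebp2* and *Eif4g2* were not among the named genes of the Scr comparison, and losses of their calls were not counted. *Eif5a* had log2 fold changes of -3.86 in Control, -2.22 in Scr and -3.08 in 92b samples, and *Eif3f* had -3.21, -2.14 and -3.34 (SE 0.34 and 0.38 for each value). The values in 92b samples were -2.66 and -2.77 without Whole_92b replicate 3.

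Other parts of the translation apparatus are given for comparison and were not tested as sets. Of 86 tested cytosolic ribosomal protein loci, 80 were called lower with a median log2 fold change of -2.33, and of 9 elongation factor loci 5 were called lower and 4 not, with a median of -1.94. Among 31 other loci of initiation and its control, 11 were called lower, 5 higher and 15 not, with a median of -0.25. The lower ones included the poly(A)-binding protein genes *Pabpc1* (-2.10) and *Pabpc4* (-1.70), *Atf4*, for the transcription factor translated when eIF2α is phosphorylated (-1.49), and *Paip1*, for a partner of the poly(A)-binding protein (-1.45). The higher ones were *Mtif2* (0.61), *Rps6kb1* (0.54), *Gigyf2* (0.52), *Impact* with *Gm26407* (0.33) and *Rptor* (0.32).

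The members' nuclear values were set beside gene structure in GENCODE M21, as a description over genes measured in the same libraries. All 53 tested members were found. The 30 called lower had a median gene span of 16353 bases and the 22 not called 27314 bases. Spearman's rho of gene span with the nuclear over whole cell log2 fold change was 0.49 over the 53 members. It was 0.65 over the 42 that stand alone in their locus and 0.19 over 10577 loci of 1 coding gene. Other features were also compared. Over the 42, rho was 0.43 for mRNA length, 0.43 for coding length, 0.42 for exon number and 0.15 for 3′ UTR length. Over the 53 these were 0.29, 0.19, 0.20 and 0.14, and over loci of 1 coding gene 0.19, 0.24, 0.05 and 0.04. The spans of the separated genes were short in several cases, with 5245 bases for *Eif5a*, 2212 for *Eif1* and 8535 for *Eif3f*, and long for *Eif2ak4* (86617), *Eif5b* (57570) and *Eif3a* (29542), which were not called. *Eif4a2*, at 6693 bases and not called, and *Eif2s3x*, at 24156 bases and lower, went against this order. So did *Eif4g3* (215487 bases, the longest span among the tested members), *Eif3h* (78966) and *Eif2ak3* (60731), which were called lower. *Eif3g* (4275) and *Eif1ad* (4786) were short and not called. *Eif4ebp3*, which shares its locus with *Ankhd1*, had the shortest span of the tested members (1858) and was the single member called higher. These examples were picked after their values were seen.

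FPKM, which divides by the length of the transcripts that Cufflinks assembled, gave larger differences for some members. By FPKM (log2(FPKM + 0.1), limma), 31 members were called lower and 0 higher, of which 27 were also called lower on counts, and 16.1% of all loci were called lower. The median over members was -1.02 by FPKM and -0.63 by counts, while over all loci these were 0.02 and 0.14. Without Whole_92b replicate 3, 28 members were called lower by FPKM and 0 higher, with a median of -0.90, beside -0.01 for all loci. The share of all loci called is not given for that run. *Eif3e* had a log2 fold change of -0.29 by counts and -2.15 ± 0.21 by FPKM (limma adjusted p = 2.71e-06, with up to 0.198 over the other alternatives). Without that library the FPKM value was -1.96. Its mean FPKM was 29.7 ± 10.5 (SD, n = 3) in Nuc_Control and 151 ± 19.3 in Whole_Control, while its mean normalized counts were 2084 ± 455 and 2468 ± 178. *Eif3h* had -0.51 and -2.29, and *Eif4b* -0.63 and -1.53. *Eif4ebp1* with *5430430B14Rik* turned from 0.20 by counts to -1.40 by FPKM (limma adjusted p = 1.48e-05, with up to 0.228 over the other alternatives). Why the scales differ at these loci was not tested. Per length, the order of the members differed between the compartments below the first pair. In the 9 nuclear samples the highest mean FPKM values were 122 ± 36.6 (SD) for *Eif1*, 113 ± 27.0 for *Eif4g2*, 82.2 ± 28.3 for *Eif4e3* with *Foxp1*, 73.6 ± 23.9 for *Eif4a2* and 67.9 ± 15.3 for *Eif4g1*, and neighbours in this order lay within 1 SD of each other except *Eif4g2* and *Eif4e3*. In the 9 whole cell samples they were 396 ± 154 for *Eif1*, 265 ± 69.2 for *Eif4g2*, 155 ± 79.3 for *Eif3e*, 138 ± 65.2 for *Eif3h* and 136 ± 53.2 for *Eif5a*, of which the last 3 lay within 1 SD of each other. The same 5 were highest without Whole_92b replicate 3, with *Eif5a* (122) above *Eif3h* (118).

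**Figure D4:**
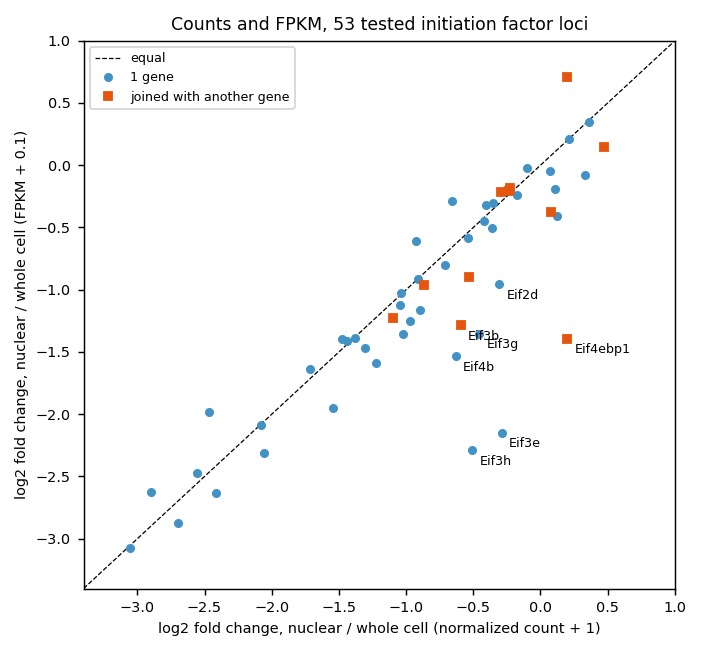
Nuclear over whole cell log2 fold change of each tested member by counts (x axis, normalized count + 1) and by FPKM (y axis, FPKM + 0.1). Most loci lie near the dashed line of equality, and *Eif3e*, *Eif3h* and *Eif4ebp1* lie 1.59 to 1.86 below it.

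RNA collected with *miR-92b* was compared with RNA collected with the scrambled sequence to ask whether initiation factor mRNAs came down with the miRNA. In nuclear samples 0 of 53 members were called by limma, edgeR or DESeq2, where these called 0%, 0% and 0.00642% of all tested loci. At an unadjusted p under 0.05 there were 2, against 4.41% of all loci. The median log2 fold change was -0.07 for members and 0.11 for all loci. *Eif3f* had normalized counts of 115, 90.9 and 99.0 in Nuc_92b and 117, 264 and 274 in Nuc_Scr. The 92b samples were all lower, by a log2 fold change of -1.005 ± 0.38 (limma adjusted p = 0.99996). *Eif4h* had 938, 1081 and 1244 against 998, 655 and 735, which overlapped (0.46 ± 0.21, limma adjusted p = 0.99996). *Eif2b1*, next by p, had 15.02, 11.8 and 20.6 against 18.3, 1.15 and 1.26 (1.85 ± 0.97), at reads too few for a firm value.

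In whole cell samples 0 of 53 members were called by limma, edgeR or DESeq2, with or without Whole_92b replicate 3. With all samples limma and edgeR each called 0.00642% of all loci and DESeq2 1.13%. At an unadjusted p under 0.05 in limma there were 4 members, against 9.72% of all loci, and 5 without that library, against 7.93%. The median was 0.07 for members and -0.01 for all loci, and for members it was -0.18 without Whole_92b replicate 3 and 0.29 without Whole_92b replicate 2. *Eif2ak2* had 65.7, 0 and 153 in Whole_92b and 162, 117 and 186 in Whole_Scr, so that its value of -2.82 ± 1.11 rests on the sample at 0 (limma adjusted p = 0.439). *Eif3d* had 926, 1101 and 2147 against 831, 760.5 and 934 (0.63 ± 0.27, limma adjusted p = 0.466). *Eif3e* had 2355, 2382 and 4577 against 2251, 2065 and 2152, all higher with 92b (0.45 ± 0.21, limma adjusted p = 0.494). In both *Eif3d* and *Eif3e* the highest 92b sample is Whole_92b replicate 3, without which the values were 0.27 and 0.14. For *Eif2ak2* the value without it was -4.23 ± 1.04 (limma adjusted p = 0.208). The study itself, with Cuffdiff, reported genes that differed between these pulldowns in both compartments. It listed formation of the translation initiation complex among its most enriched whole cell pathways. Cuffdiff differs from the tests used here, and its values for these members were not compared.

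**Figure D5:**
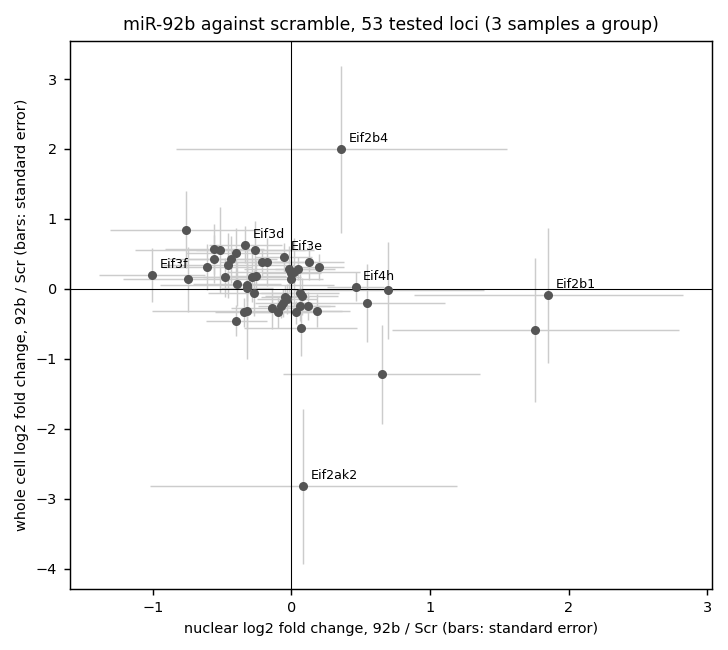
Log2 fold change of 92b over Scr in nuclear (x axis) and whole cell samples (y axis) for the 53 tested members, with standard errors of the limma fit. None was called in either compartment; *Eif2ak2*, *Eif2b1* and *Eif2b4* lie farthest out and have the widest bars.

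The gene with the seed match did not stand apart, although its counts cover the whole locus and not only the transcript with the site. *Eif2ak4*, whose site is shown above, had 428, 409 and 502 in Nuc_92b and 479.9, 412 and 301 in Nuc_Scr (0.19 ± 0.23), and 272, 423 and 386 in Whole_92b and 397, 485 and 441 in Whole_Scr (-0.31 ± 0.23). These samples overlapped in both compartments, and neither was called (limma adjusted p = 0.99996 and 0.687). For reference, the 986 tested loci with a 7-base match had a median 92b over Scr log2 fold change of 0.02 in nuclear and -0.01 in whole cell samples, and the 10656 without one had 0.08 and 0.05.

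The difference between the nuclear and the whole cell effect of 92b over Scr was called for 0 of 53 members by limma, edgeR or DESeq2, with or without Whole_92b replicate 3, where with all samples limma and edgeR each called 0.00642% of all loci and DESeq2 0.257%. At an unadjusted p under 0.05 in limma there were 4 members, or 7.55%, near the 7.21% of all loci. They were *Eif3d* (-0.96 ± 0.38), *Eif3g* (-1.12 ± 0.50), *Eif3f* (-1.20 ± 0.54) and *Eif3c* (-0.59 ± 0.28), with limma adjusted p from 0.683 to 0.6898. Without Whole_92b replicate 3 these were -0.60, -0.72, -0.62 and -0.36, none of the 4 passed at an unadjusted p under 0.05, and 4 other members did.

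Against untransfected cells 0 members were called by limma, edgeR or DESeq2, and in whole cells with 92b also without Whole_92b replicate 3. Shares of all loci are those of limma, and edgeR gave the same. DESeq2 called 0% in both nuclear comparisons, 0.135% for 92b and 0.237% for Scr in whole cell samples. For 92b in nuclear samples 0 members were called (0% of all loci) and 0 had an unadjusted p under 0.05 (0.321% of all loci); the 3 lowest were *Eif5a* (0.52 ± 0.34), *Eif3j2* (0.97 ± 0.69) and *Eif1ad* (-0.76 ± 0.63). For 92b in whole cell samples 0 were called (0.00642%) and 1 passed unadjusted (4.69%), which was *Eif2ak2* with the sample at 0 (-2.40 ± 1.11), followed by *Eif4a1* (-0.33 ± 0.21) and *Eif3a* (-0.24 ± 0.16). Without Whole_92b replicate 3, 15 members passed unadjusted in this comparison, all lower with 92b, against 8.09% of all loci, and 0 were called. The lowest p among them was that of *Eif1* (-0.92 ± 0.25, limma adjusted p = 0.368; -0.36 with all samples). For Scr in nuclear samples 0 were called (0%) and 4 passed unadjusted (5.88%). *Eif5a* had 183, 140.4 and 324 in Nuc_Scr and 118, 117 and 80.7 in Nuc_Control, all higher with Scr (0.96 ± 0.34, limma adjusted p = 0.838), and *Eif3i* was also higher (1.14 ± 0.47) and *Eif2b1* lower (-2.66 ± 0.97) without overlap. For Scr in whole cell samples 0 were called (0%) and 3 passed unadjusted (5.09%). *Eif4a1* had 661, 853 and 697 in Whole_Scr and 1084, 1043 and 1084 in Whole_Control, all lower with Scr (-0.55 ± 0.21, limma adjusted p = 0.957), and *Eif3g* (-0.90 ± 0.36) and *Eif4ebp2* (-0.54 ± 0.25) were lower without overlap. These comparisons share the Scr, 92b or Control samples with those above. With 3 samples a group these misses do not show that the groups were alike.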

How the data were processed

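Oligo-dT-selected RNA was sequenced from directional libraries on an Illumina HiSeq. According to the submitters' processing notes and the study's methods, reads were converted with bcl2fastq (2.17), trimmed with Trimmomatic (0.30), aligned with TopHat2 to GRCm38 (mm10), and assembled and compared with Cufflinks and Cuffdiff; no source used here names the annotation release. The deposited count table holds a normalized signal, made by the authors as fragments per locus divided by 1 size factor per sample, and the deposited FPKM table divides further by transcript length. The authors' comparison tables hold Cuffdiff fold changes, p-values and q-values, and were not used.

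Samples were grouped by their labels. Each of the 635205 values above 0 came out as whole reads (100%, tolerance 0.02 reads), so reads were recovered for edgeR (4.0.16) and DESeq2 (1.42.0). The design had allowed for raw counts; as the values are normalized, limma (3.58.1, R 4.3.3) was fitted to log2(normalized count + 1) with a variance trend in 1 model of the 6 groups, two-sided, on 15579 loci that have a symbol and average at least 10, with Benjamini-Hochberg adjustment over all of them and a threshold of 0.05. Fold changes of low loci are understated on this scale. Scripts were tested on simulated data. The alternatives were pseudocounts of 0.5 and 8, filters at 1 or 50 or none, FPKM with a pseudocount of 0.1, samples set to the same median, quantile normalization, sample weights, the sample number as a block, the compared groups alone, joined loci left out, edgeR, DESeq2, and each sample left out. FPKM, edgeR and DESeq2 were also run without Whole_92b replicate 3, chosen after seeing the data. Named genes were up to 8 called members per direction and comparison with the largest change, 20 members named in advance, the 5 of highest mean, and the 3 of lowest p where fewer than 3 were called; other members are listed by value for completeness. The members, lists and rules were chosen with earlier results of these data known. Intervals and errors cover the spread between samples only, and reads carry no molecular identifiers.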

Additional observations from a re-analysis of the deposited data

How the results depend on the processing

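Of the 11 comparisons, the number of called members stayed within 1.5 times the reported one in 248 of 253 recalculations, including the match count below. The exceptions were 33 members called in nuclear against whole cell Control samples with sample weights (21 reported), 7 in Scr samples with no filter and 6 without Whole_Scr replicate 3 (11 reported), 5 in 92b samples with only the compared groups in the model (20 reported), and 0 members with a seed match when 8 bases were required (1 reported with 7). In the 7 comparisons of treatments the reported count was 0, and 0 again was counted as unchanged. Those recalculations are part of the 248. The limit of 1.5 times also let 14 members pass for the 20 reported in 92b samples. Leaving out each sample in turn gave 28 to 34 called members in the averaged comparison, 15 to 18 in Control, 6 to 9 in Scr and 14 to 25 in 92b samples, and 0 in each of the 7 comparisons of treatments. With FPKM the averaged value turned sign for *Eif2s1* (-0.19), *Eif4a2* (-0.38), *Eif4ebp1* (-1.40) and *Eif5b* (-0.0496), and *Eif4a1* in whole cells, 92b against Control, became 0.0622. FPKM, edgeR and DESeq2 without Whole_92b replicate 3 were added after seeing the data. In the first of these the averaged values were -0.12, -0.30, -1.25 and -0.29 for the same 4 members and -0.091 for *Eif4ebp3*, and *Eif3e* in whole cells, 92b against Scr, became -0.12. With quantile normalization *Eif2b1* in nuclear samples, 92b against Scr, became -0.74. The cause was not tested. Of the other values of named members, 1807 kept their direction and side of the threshold, 63 lost the call and 24 gained it. The median of the members moved by more than the spread between samples in 18 of 252 recalculations, among them the averaged comparison by FPKM (-1.02) and without joined loci (-0.90, 26 lower and 0 higher of 42). With samples rescaled to 1 median, the middle of all loci went from 0.14 to 0.23 and of the members from -0.63 to -0.54, and called 28 members lower and 3 higher. Same-numbered samples of different groups did not deviate together (mean correlation 0.0072 over 45 pairs), so the numbers were not read as pairs; with the replicate block 33, 21, 11 and 20 members were called in the averaged, Control, Scr and 92b comparisons and 0 in each other, which changed no count by over 1.5 times. With 3 samples a group, at 3752991 reads in the shallowest library, low loci such as *Eif2b1* and *Eif2ak2* rest on few reads.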
